A study of Mus musculus with 6 samples.

Results

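Notch signalling was described through 10 genes in nuclei of fasted mouse liver: the ligands Dll4, Jag1 and Dll1, the receptors Notch1, Notch2, Notch3 and Notch4, and the target genes Hes1, Hey1 and Heyl. They were picked by gene symbol from the 32285 features of the count tables, and all 10 were present. The choice was made with earlier results of these data known, so the levels and genotype differences below describe the genes and do not test the choice. Nuclei came from the livers of 6 male mice, 18 weeks old, on chow and without food for 12 hours overnight. The 3 knockout mice were labelled as lacking Plvap, the protein of the diaphragms of caveolae and endothelial fenestrae, in hepatic stellate cells, the retinoid-storing pericytes of the sinusoid. Their 3 littermate controls were given the same strain, C57BL/6JBomTac, and the same allele and transgene designation, Plvaptm1.1Salm-Tg(Lrat-cre)1Rshw. The sources used here do not say whether a control carried the Lrat-driven Cre. Nothing in the labels pairs a knockout with a control, and each library is 1 mouse.

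Notch receptors are activated by ligands on a neighbouring cell. Binding leads to cleavage of the receptor, and the released intracellular domain enters the nucleus, where it joins the DNA-binding protein RBPJ and Mastermind-like coactivators and turns on repressors of the Hes and Hey families. In liver the pathway is known for bile duct formation, where Jag1 and Notch2 mutations cause Alagille syndrome in humans, for arterial identity of endothelium, and for restraining endothelial growth through Dll4. Sinusoidal endothelium, the fenestrated lining of the liver's capillaries, lies against the stellate cells and runs between the portal and the central vein.

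Upstream sequence is shown for 3 genes whose levels differed between related classes of nuclei in every mouse: Dll4 and Jag1, ligands that were higher on the portal side of the sinusoid, and Notch3, a receptor that was higher in one of the stellate clusters. Other genes that also differed in every mouse, Dll1 and Notch1 among them, are not printed. RefSeq windows on GRCm38.p6 were held for 7 of the 10 genes, and the stretches printed lie before the gene's start in both RefSeq and GENCODE M21. Capitals mark GGGCGG or its reverse complement CCGCCC, the GC box bound by Sp family factors, searched on both strands.
Dll4, chr2:119325534-119325783, plus strand: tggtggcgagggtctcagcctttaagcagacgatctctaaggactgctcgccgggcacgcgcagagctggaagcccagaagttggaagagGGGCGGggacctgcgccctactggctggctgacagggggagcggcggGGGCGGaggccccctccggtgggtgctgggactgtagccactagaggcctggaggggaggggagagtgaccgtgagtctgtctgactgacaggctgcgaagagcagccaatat
Jag1, chr2:137116645-137116770, minus strand: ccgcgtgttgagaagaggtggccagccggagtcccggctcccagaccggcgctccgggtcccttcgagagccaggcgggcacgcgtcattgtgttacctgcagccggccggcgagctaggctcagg
Notch3, chr17:32166891-32167140, minus strand: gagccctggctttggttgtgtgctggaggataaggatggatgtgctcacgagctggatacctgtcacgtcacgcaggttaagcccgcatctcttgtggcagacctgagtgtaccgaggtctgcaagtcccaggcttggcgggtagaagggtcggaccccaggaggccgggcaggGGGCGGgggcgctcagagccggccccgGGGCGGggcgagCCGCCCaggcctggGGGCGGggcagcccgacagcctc
Within the 250 bases before the RefSeq start, GC boxes numbered 2 for Dll4, 4 for Notch3, 5 each for Notch1 and Notch2, and 0 for Jag1, Notch4 and both starts of Dll1. Of 32851 mouse windows of that length, 32.7% held at least 1. The letters TGGGAA or TTCCCA, the core bound by RBPJ, were in none of the windows of the 7 genes and in 21.6% of all windows.

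Libraries held 23153182 to 27199466 UMIs, and 25662 nuclei were kept, 3528 to 5006 per mouse, with medians of 4076 to 5328 UMIs. Library pairs shared 1 to 10 cell barcodes, at most 0.233% of the smaller library. Nuclei were clustered without the 10 genes, the other pathway genes or Plvap, and clusters were named from marker lists. All markers of the sinusoidal, large vessel, stellate, cholangiocyte, hepatocyte, macrophage, T/NK, B and plasmacytoid dendritic lists were higher in their own class than over all nuclei, and 11 of 12 for portal mesenchyme. Plvap itself was at 225, 187 and 155 CPM (the UMI count of a gene scaled to the total of its class) in stellate nuclei of knockouts 1, 2 and 3, against 239, 213 and 239.6 CPM in controls 1, 2 and 3. The sources used here do not name the deleted exons, and 3′ tags or intronic reads can lie outside them, so these values check neither the deletion nor the labels. Hepatocytes differed in make-up between mice: 1 of their clusters had 91.8% of its nuclei from knockout 1. A further hepatocyte-scored cluster, mostly of control 1 and knockout 2, was kept apart. Its leading genes held a cholangiocyte marker and no hepatocyte marker. It took 879 nuclei of control 1 and 726 of knockout 2, which kept 249 and 192 nuclei in the hepatocyte class.

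The 10 genes gave 37402 UMIs in the kept nuclei. Their levels were read in 13 named classes: sinusoidal endothelium in 3 zones (periportal-like, intermediate and pericentral-like), large vessel endothelium, 2 stellate clusters called Piezo2-led and Adamtsl2-led after a gene that led each, portal mesenchyme, cholangiocytes, hepatocytes, macrophages, plasmacytoid dendritic cells, T/NK cells and B cells. Values are means ± SD over 6 mice unless a group is named. Levels are compared within a gene, across classes, since tags are not scaled for length. Classes were built from the same nuclei, so class against class is a description without a test. Portal mesenchyme (12 to 28 nuclei per mouse) and plasmacytoid dendritic cells (7 to 20) were too few for the genotype fit.

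**Figure D1:**
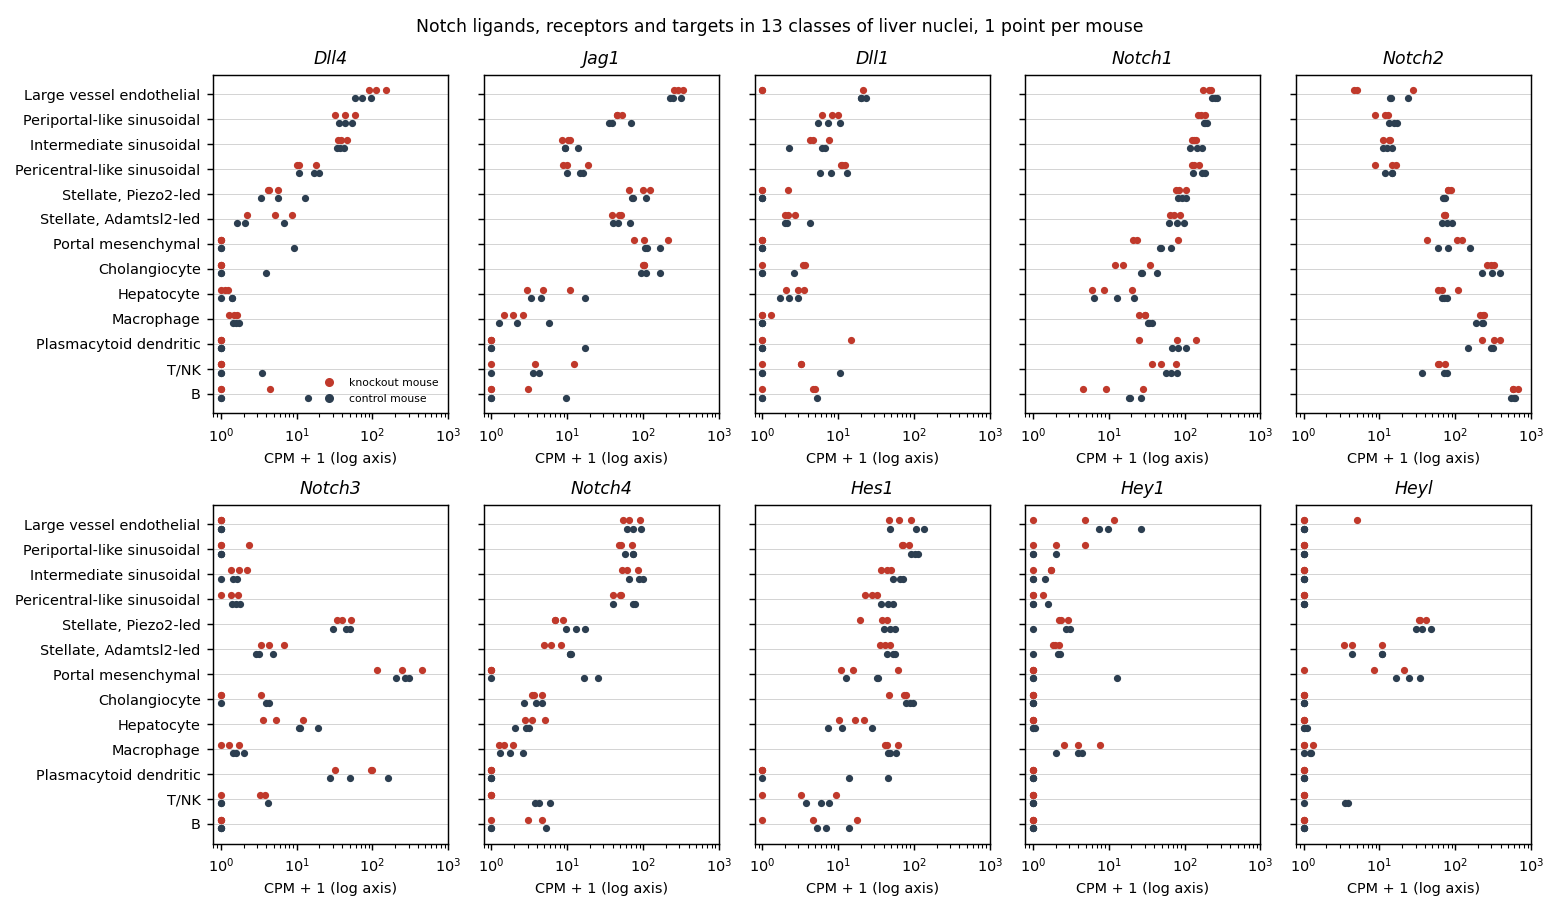
Level of each gene (CPM + 1, log axis) in 13 classes of nuclei, 1 point per mouse, with knockout mice above control mice in each class. Among these 13 classes, Dll4 and Jag1 were highest in large vessel endothelium, Notch2 in B cells, Notch3 in portal mesenchyme, and Heyl in the Piezo2-led stellate cluster.

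Dll4, a ligand made by arterial and sprouting endothelium (chromosome 2, 119325784 to 119335962, plus strand, GRCm38), was an endothelial transcript in these livers. Large vessel nuclei had 96 ± 32.9 CPM, periportal-like nuclei 43.6 ± 10.1, intermediate nuclei 37.9 ± 4.76 and pericentral-like nuclei 13.4 ± 4.33. Large vessel nuclei were above periportal-like ones in 6 of 6 mice and intermediate above pericentral-like ones in 6 of 6, whereas the periportal-like and intermediate zones did not separate beyond their spread. The large vessel class left out a Vwf-led endothelial cluster of 154 nuclei, which carried large vessel and pericentral markers together. That cluster had Dll4 in 0.649% of nuclei, against 27.7% of the large vessel class. Piezo2-led stellate nuclei had 5.01 ± 3.44 CPM from 53 UMIs, and the 7 classes below the stellate clusters averaged under 3.49 ± 2.97 CPM, the level of Adamtsl2-led nuclei. Gm14207 overlaps the first 411 bases of Dll4 on the other strand, and the sources used here do not say whether counting used strand.

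Jag1, the ligand of bile duct formation and of arterial walls (chromosome 2, 137081456 to 137116644, minus strand), was spread over more cell types. It stood at 277 ± 44.3 CPM in large vessel endothelium, 128 ± 49.8 in portal mesenchyme, 111 ± 27.5 in cholangiocytes and 89.2 ± 23.1 in Piezo2-led stellate nuclei. Jag1 was in 22.1% of nuclei of the Vwf-led cluster left out of the large vessel class, against 45% of that class. Portal mesenchyme exceeded cholangiocytes in 4 of 6 mice and cholangiocytes exceeded Piezo2-led nuclei in 5 of 6, so these neighbours did not separate in every mouse. Adamtsl2-led stellate nuclei had 47.9 ± 10.2 CPM and periportal-like nuclei 46.9 ± 11.5, with the first higher in 3 of 6 mice. The other sinusoidal zones were lower, at 12 ± 3.98 CPM in pericentral-like and 9.36 ± 1.82 CPM in intermediate nuclei.

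Dll1, the ligand that supports marginal zone B cells in spleen (chromosome 17, 15367354 to 15376872, minus strand), had 435 UMIs in all. Large vessel nuclei, highest by mean but above pericentral-like nuclei in 4 of 6 mice, held 22 of them, at 20.6, 0 and 0 CPM in knockouts 1, 2 and 3, against 19, 19.3 and 22.4 CPM in controls 1, 2 and 3. Knockouts 2 and 3 had no UMI there, while knockout 1 lay among the controls. In the sinusoid Dll1 was lowest in the intermediate class, at 4.29 ± 1.92 CPM. Periportal-like nuclei had 7.01 ± 2.06 CPM and pericentral-like nuclei 9.34 ± 2.8 CPM.

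Notch1, the receptor of arterial and lymphoid fate (chromosome 2, 26457903 to 26516663, minus strand), was read in every class. The level was 226 ± 33.6 CPM in large vessel, 176 ± 16.1 in periportal-like, 149 ± 25 in pericentral-like and 139 ± 18.2 CPM in intermediate endothelium. Piezo2-led and Adamtsl2-led stellate nuclei followed at 90.2 ± 12.2 and 76.4 ± 13.9 CPM, T/NK cells at 59.7 ± 16 and macrophages at 30.7 ± 4.17. Neighbours among the endothelial classes exchanged places in 1 or 2 of 6 mice. The lowest level was in hepatocytes, at 11.7 ± 7.0 CPM.

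Notch2, the receptor of bile duct and marginal zone B cell fate (chromosome 3, 98013527 to 98150361, plus strand), was distributed otherwise. B cells had 599 ± 42 CPM, above every other class of the 13 in 6 of 6 mice. Cholangiocytes had 299 ± 54.8 CPM, plasmacytoid dendritic cells 281 ± 84.6 and macrophages 221 ± 19.5. Stellate clusters, hepatocytes and T/NK cells lay between 62.4 ± 15 and 76 ± 7.58 CPM without separating. All 4 endothelial classes were at the bottom, between 11.9 ± 1.51 and 13.9 ± 9.49 CPM.

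Notch3, the receptor of vascular smooth muscle and pericytes (chromosome 17, 32120820 to 32166852, minus strand), was highest in portal mesenchyme, at 265 ± 113 CPM from 145 UMIs. Plasmacytoid dendritic cells had 76.4 ± 50.7 CPM from 25 UMIs and Piezo2-led stellate nuclei 41.1 ± 8.78 CPM from 416. Large vessel endothelium and B cells had no UMI, which allows up to 1.84 and 1.77 CPM at 3 counts over the 6 mice (counting error only). Gm17276 overlaps 21024 bases of Notch3 on the other strand and had 3723 UMIs against 1274 of Notch3. Gm17276 averaged 44.0 CPM in hepatocytes, where Notch3 averaged 9.37 ± 5.45 CPM, but 16.2 and 11.5 CPM in the Piezo2-led and Adamtsl2-led clusters, where Notch3 differed far more. Reads of this pair cannot be told apart without strand.

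Notch4, a receptor of endothelium (chromosome 17, 34564268 to 34588503, plus strand), was at 74.6 ± 17.7 CPM in intermediate, 72 ± 15.4 in large vessel, 61.7 ± 12.1 in periportal-like and 54.4 ± 16.1 in pericentral-like nuclei. Large vessel nuclei did not separate from either neighbour in this order. Stellate nuclei had 9.16% to 17.6% of the sinusoidal level of their mouse, whereas the summed level of 20 endothelial markers in stellate nuclei was 0.819% to 1.48% of the sinusoidal one. Dll4 gave 5.72% to 26.8% on the same scale. In hepatocytes Notch4 was at 1.34% to 5.6% and the marker list at 0.356% to 0.703%. Macrophages had the opposite order, with Notch4 at 0.358% to 2.06% and the list at 8.47% to 11.3%. Only the sum of the list was read in each of these classes. The share of single list genes is not known, such as Mrc1, Fcgr2b, Stab1 and Lyve1 in macrophages. What gave the Notch4 and Dll4 UMIs outside endothelium was not tested.

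Hes1, the repressor most widely induced by Notch and also by other signals (chromosome 16, 30064384 to 30067796, plus strand), was at 88.4 ± 16.7 CPM in periportal-like endothelium, 81.4 ± 35.7 in large vessels and 76.4 ± 16.9 in cholangiocytes. These 3 did not separate beyond their spread. It was at 52.2 ± 13 CPM in intermediate endothelium, 49 ± 7.87 in macrophages, 46 ± 7.42 in Adamtsl2-led and 40.1 ± 12.5 in Piezo2-led stellate nuclei, and 35.7 ± 11.1 in pericentral-like endothelium. Hepatocytes had 15 ± 7.97 CPM. Hey1, an arterial target (chromosome 3, 8663359 to 8667256, minus strand), had 126 UMIs, of which macrophages held 73 at 3.13 ± 2.02 CPM and large vessels 16 at 9.24 ± 8.77 CPM. Heyl, a target known in vascular smooth muscle (chromosome 4, 123233556 to 123249875, plus strand), was read mostly in mesenchyme, with 36.3 ± 6.44 CPM in Piezo2-led and 6.42 ± 3.71 CPM in Adamtsl2-led stellate nuclei and 16.7 ± 11.8 CPM in portal mesenchyme. The 3 sinusoidal zones had no Heyl UMI, which allows up to 0.0911 CPM over the sinusoidal nuclei of the 6 mice.

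Differences along the sinusoid were followed within each mouse as the log2 ratio of periportal-like over pericentral-like CPM, each with 1 added. Dll4 had ratios of 1.26, 2.55 and 1.55 in knockouts 1, 2 and 3 and 1.46, 2.02 and 1.09 in controls 1, 2 and 3, a mean of 1.66 ± 0.54 (SD, n = 6). Jag1 had ratios of 1.5, 2.19 and 2.39 in knockouts 1, 2 and 3 and 2.21, 1.17 and 1.99 in controls 1, 2 and 3, a mean of 1.91 ± 0.48. Hes1, the target of the 3, had 1.13, 1.3 and 1.94 in knockouts 1, 2 and 3 and 1.17, 0.80 and 1.58 in controls 1, 2 and 3, a mean of 1.32 ± 0.39. Both ligands and the target were higher on the portal side in every mouse of both genotypes.

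Of the 7 genes with at least 5 CPM in either zone, 3 were higher in the periportal-like zone in all 6 mice, where 7.43% of 11039 genes of that level were, and 1, Dll1, was lower in all 6, where 7.69% were. Dll1 had a mean ratio of -0.36 ± 0.34, and its largest difference was in knockout 2. Notch1 at 0.25 ± 0.24, Notch4 at 0.20 ± 0.27 and Notch2 at -0.02 ± 0.47 differed by about their spread or less. Of the same 7, 3 were higher (Dll4, Notch4 and Hes1) and Dll1 lower in intermediate than in pericentral-like nuclei in all 6 mice, where 7.93% and 7.43% of genes were. In periportal-like over intermediate nuclei, 4 (Dll1, Jag1, Notch1 and Hes1) were higher and Notch4 was lower in all 6, where 6.64% and 6.96% were. The ligands changed at different steps: from pericentral-like to intermediate nuclei Dll4 differed by 1.48 ± 0.53 and Jag1 by -0.29 ± 0.40, while from intermediate to periportal-like nuclei Dll4 differed by 0.18 ± 0.23 and Jag1 by 2.19 ± 0.18. Dll4 was thus low in the pericentral-like zone only, and Jag1 high in the periportal-like zone only, among the 3 zones. The intermediate zone pooled the sinusoidal clusters between the most portal and the most central one. They scored 0.10 and 0.54 in portal minus central markers, against 0.83 for the periportal-like and -1.12 for the pericentral-like cluster. The cluster at 0.54 was shallower, with a median of 2437 UMIs against 4026 in the one at 0.10. Levels within this pool were not read apart. Large vessel nuclei exceeded periportal-like ones by 1.08 ± 0.41 for Dll4 and 2.56 ± 0.47 for Jag1, in 6 of 6 mice each, a direction that 10.9% of 11702 genes had, and none of the 8 genes of that level was lower in all 6, where 11% were.

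Zones were cluster names, and 10.38% to 13.7% of sinusoidal nuclei per mouse lay near the division of a per-nucleus zone score. With 3 equal parts of that score in place of clusters, the same 3 genes were higher on the portal side in all 6 mice. Whether the difference between zones itself differed by genotype was tested over all genes with mouse as a block in edgeR's quasi-likelihood test. None of the 7 genes tested passed, where 0.0452% of 11058 genes did, and none had an unadjusted p under 0.05. The term was 0.31 (SE 0.236) for Hes1, 0.11 (SE 0.343) for Dll4 and 0.16 (SE 0.342) for Jag1, with adjusted p of 0.999 in edgeR for each.

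**Figure D2:**
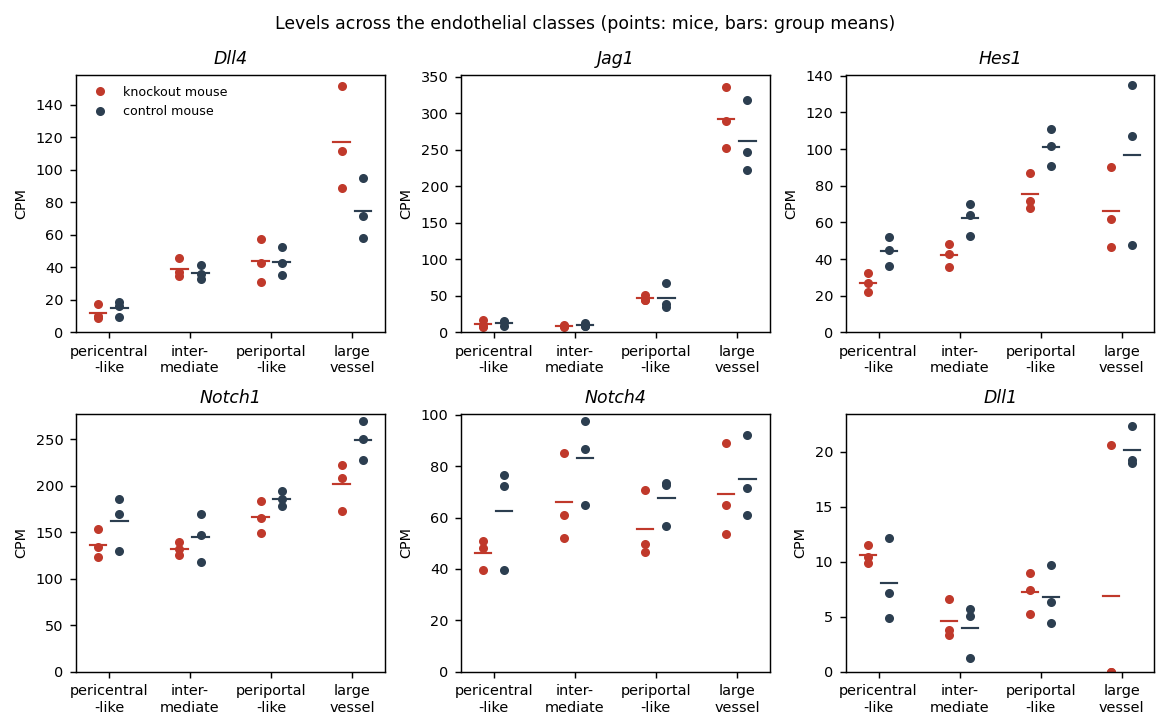
CPM of 6 genes in pericentral-like, intermediate and periportal-like sinusoidal and in large vessel endothelium, with points for mice, bars for group means and knockout mice left of control mice. Dll4, Jag1 and Hes1 were higher in periportal-like than in pericentral-like nuclei in all 6 mice, and Hes1 lay lower in knockout than in control mice in each sinusoidal zone.

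Among stellate nuclei the 2 clusters were compared in the same way, as Piezo2-led over Adamtsl2-led. The Piezo2-led cluster had 1855 nuclei and the Adamtsl2-led cluster 1353. Notch3 was at 33.3, 50.5 and 38.5 CPM in Piezo2-led nuclei of knockouts 1, 2 and 3 and 50.2, 44.6 and 29.5 CPM in those of controls 1, 2 and 3. Adamtsl2-led nuclei had 3.39, 5.88 and 2.41 CPM in the knockouts and 3.92, 1.95 and 2.25 CPM in the controls. The clusters did not overlap, and the mean log2 ratio was 3.33 ± 0.39 (SD, n = 6).

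Heyl was at 32.1, 33.2 and 40.4 CPM in Piezo2-led nuclei of the knockouts and 47.1, 35.6 and 29.5 CPM in those of the controls. In Adamtsl2-led nuclei it was at 3.39, 9.79 and 2.41 CPM in the knockouts and 9.8, 9.77 and 3.37 CPM in the controls, a mean log2 ratio of 2.49 ± 0.75. Receptor and target therefore differed in the same direction between the clusters in every mouse. Jag1 had a ratio of 0.87 ± 0.25 and Notch1 of 0.25 ± 0.19, both higher in the Piezo2-led cluster in 6 of 6 mice. Of 8 genes with at least 5 CPM in either cluster, these 4 were higher in all 6 mice, where 6.61% of 11555 genes were, and none was lower in all 6, where 11.3% were. Hes1 did not follow, at -0.25 ± 0.32, nor did Notch2, at 0.02 ± 0.25.

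**Figure D3:**
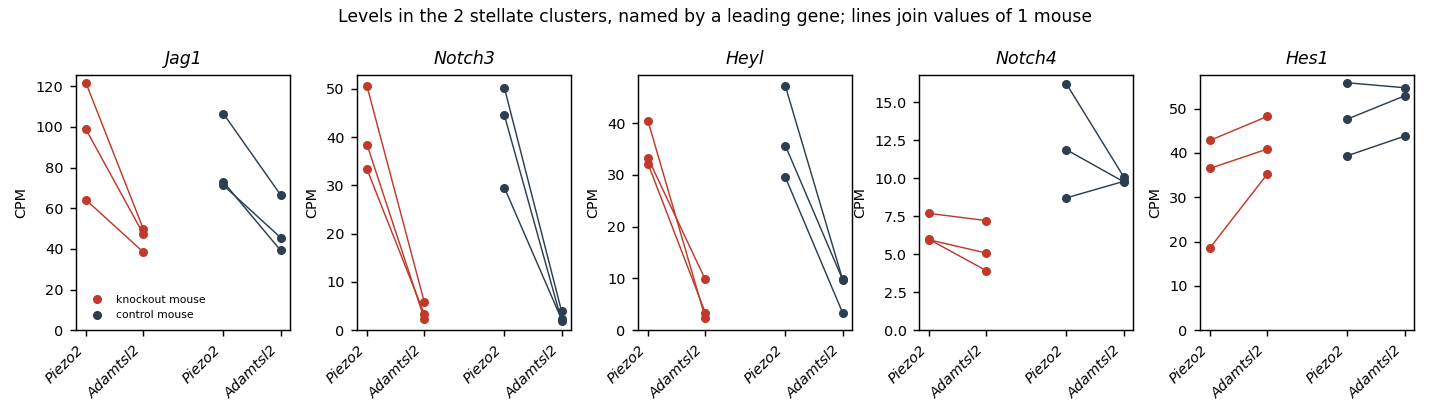
CPM of 5 genes in the Piezo2-led and Adamtsl2-led stellate clusters, with a line for each mouse and knockout mice left of control mice. Notch3, Heyl and Jag1 were higher in the Piezo2-led cluster in all 6 mice, and Notch4 was lower in knockout than in control mice in both clusters.

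Knockout and control mice were compared in 13 fits, 1 for each class with at least 20 nuclei in every mouse, for all sinusoidal nuclei and their zones, and for all stellate nuclei and their clusters. None of the 10 genes passed: of 68 tests of the 10 genes over the 13 fits, 0 had an adjusted p under 0.05 in edgeR, where 0.0233% of 124497 tests of all genes did, and DESeq2 also called 0. An unadjusted p under 0.05 in edgeR was found in 8 of the 68. Sinusoidal nuclei and each of their zones gave 1 of these, Hes1 each time. Among all genes it was found in 565 of 12992 in sinusoidal nuclei and 484 of 12031 in stellate nuclei. By share, the fits ran from 315 of 13531 in hepatocytes to 454 of 9073 in periportal-like nuclei. The fits share nuclei, as sinusoidal and stellate sums contain their zones and clusters. In 49 of the 68 tests the gene was lower in knockouts, where 49% to 50.6% of all genes in a fit were higher. Knockouts lay wholly below controls in 9 of the 68, where 3.23% of all tests did, and wholly above in 1, where 6.16% did. Hes1 made up 4 of the 9, in nuclei that overlap between fits, Notch1 2, Notch4 2 and Notch2 1.

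Hes1 gave the largest difference for its error. In all sinusoidal nuclei it was at 44.9, 44.7 and 41.8 CPM in knockouts 1, 2 and 3, against 67.9, 65.9 and 57.1 CPM in controls 1, 2 and 3. All 3 knockouts lay within a narrow range below the lowest control, as did 2.59% of the 12992 genes tested there. The log2 fold change was -0.59 (SE 0.111). Its adjusted p in edgeR was 0.407 (unadjusted 0.000292), and 0.0077% of genes passed in this class. With no filter on low counts its adjusted p in edgeR was 0.0095, at the same fold change. In that setting 71 of 23193 genes passed in this class, against 1 of 12992 with the filter. Over the 12 alternative settings the fold change ran from -0.64 to -0.55 and the adjusted p from 0.0095 to 0.939.

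Hes1 was then read zone by zone. Periportal-like nuclei had 71.7, 68.1 and 86.7 CPM in knockouts, against 102, 90.9 and 111 CPM in controls, a log2 fold change of -0.44 (SE 0.171). Intermediate nuclei had 42.7, 48.4 and 35.5 CPM in knockouts, against 69.98, 64.2 and 52.5 CPM in controls, a fold change of -0.61 (SE 0.159). Pericentral-like nuclei had 32.1, 27 and 21.9 CPM in knockouts, against 44.8, 51.8 and 36.5 CPM in controls, a fold change of -0.75 (SE 0.206). In none of the 3 zones did the groups overlap, where 4.06%, 2.84% and 2.99% of genes were lower in the same way. Adjusted p-values in edgeR were 0.878, 0.688 and 0.947.

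Outside the sinusoid the groups overlapped. Large vessel nuclei had 61.9, 90.1 and 46.4 CPM of Hes1 in knockouts, against 47.6, 135 and 107 CPM in controls (-0.54, SE 0.384). Stellate nuclei had 45.1, 25.3 and 38 CPM in knockouts, against 49.5, 55.3 and 40.9 CPM in controls (-0.47, SE 0.209, adjusted p 1.0 in edgeR). Cholangiocytes had 45.9, 74.3 and 77.7 CPM in knockouts, against 87.7, 95.4 and 77.3 CPM in controls (-0.46, SE 0.277), where knockout 1 stood apart as the lowest. Macrophages had 60.3, 41.3 and 43.5 CPM in knockouts, against 44.4, 57.3 and 47.5 CPM in controls (-0.06, SE 0.176). Hepatocytes had 9.31, 15.7 and 21.2 CPM in knockouts, against 27.2, 10.3 and 6.35 CPM in controls (0.19, SE 0.52), from clusters that mice shared unequally. These values leave out the hepatocyte-scored cluster kept apart, where Hes1 was read in a larger share of nuclei. Whether the difference in sinusoidal nuclei differs from that in other classes was not tested.

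Marker lists were read beside Hes1. In sinusoidal nuclei 20 endothelial markers summed to 27843 to 30041 CPM in knockouts and 28712 to 31994 CPM in controls. Of these 20, 8 were higher in knockouts. The summed level of 10 hepatocyte markers in sinusoidal nuclei was 1252 to 1999 CPM in knockouts and 882 to 1203 CPM in controls, higher in knockouts for 7 of the 10 and at 0 for none. The 16 immediate early genes, which respond to stimulation and to tissue handling, summed to 165 to 186 CPM in knockouts and 173 to 254 CPM in controls, higher in knockouts for 4 of the 16. That list was chosen after values were seen. The part of these lists in the Hes1 difference was not tested.

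**Figure D4:**
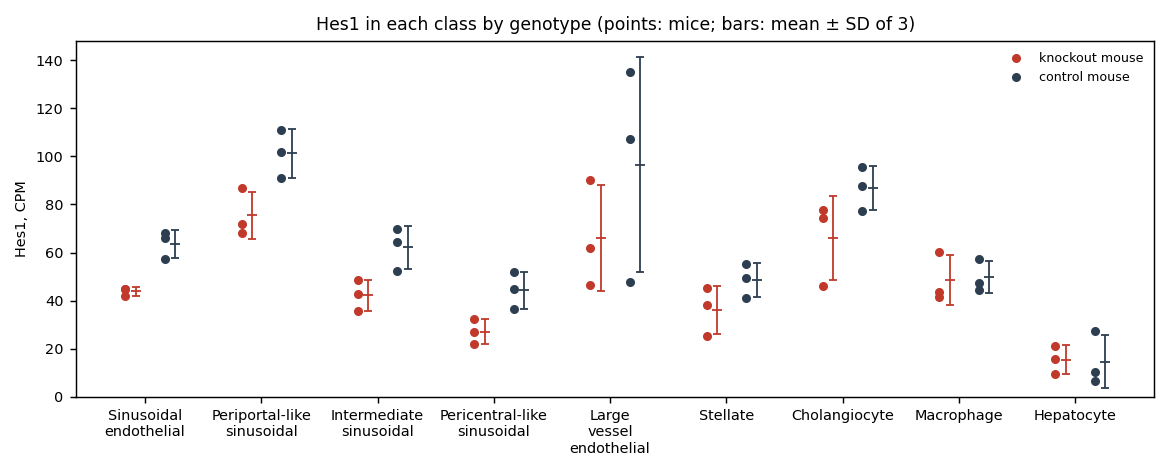
Hes1 (CPM) in 9 sets of nuclei, with points for mice, bars for mean ± SD of 3 mice and knockout mice left of control mice. Knockout mice lay below all control mice in sinusoidal endothelium and each of its 3 zones, and the groups overlapped in large vessels, stellate cells, cholangiocytes, macrophages and hepatocytes.

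Notch4 was the receptor with the largest difference outside hepatocytes, again without passing. Stellate nuclei had 5.59, 5.15 and 7.53 CPM in knockouts 1, 2 and 3, against 9.08, 10.9 and 14.1 CPM in controls 1, 2 and 3, from 146 UMIs. The groups did not overlap, as in 2.92% of the 12031 genes tested, and 0.0499% of genes passed. The log2 fold change was -0.95 (SE 0.288), and the adjusted p in edgeR was 1.0 (unadjusted 0.00723). Piezo2-led nuclei had 5.95, 5.98 and 7.69 CPM in knockouts, against 8.71, 11.9 and 16.2 CPM in controls (-0.94, SE 0.346), also without overlap, as in 3.37% of genes. Adamtsl2-led nuclei, where Notch4 had 50 UMIs and did not enter the fit, had 5.08, 3.92 and 7.22 CPM in knockouts and 9.8, 9.77 and 10.1 CPM in controls.

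The 20 endothelial markers in stellate nuclei summed to 288 to 412 CPM in knockouts and 258 to 353 CPM in controls. They were higher in knockouts for 17 of the 20 and at 0 for none. In Piezo2-led nuclei they summed to 235 to 297 CPM in knockouts and 225 to 232 CPM in controls. There 18 of the 20 were higher in knockouts. The 10 hepatocyte markers summed to 922 to 1749.7 CPM in knockouts and 588 to 798 CPM in controls, higher in knockouts for all 10. The part of either list in the Notch4 difference was not tested. In sinusoidal nuclei Notch4 was at 45.8, 56.2 and 72 CPM in knockouts, against 56.2, 83.1 and 80.3 CPM in controls, an overlap of the groups and a fold change of -0.39 (SE 0.209). Knockout 3 reached the range of the controls there, and control 1 that of the knockouts.

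Notch1 was lower in knockouts in each endothelial class without passing. Large vessel nuclei had 223, 173 and 209 CPM in knockouts, against 228, 270.0 and 250.3 CPM in controls, without overlap, as in 4.73% of genes, and a fold change of -0.31 (SE 0.21). Macrophages had 29.2, 24.3 and 29.1 CPM in knockouts, against 33.1, 36.6 and 31.6 CPM in controls, also without overlap, as in 3.61% of genes, and a fold change of -0.31 (SE 0.143). In sinusoidal nuclei the values were 132, 145 and 141 CPM in knockouts, against 176, 166 and 133 CPM in controls (-0.23, SE 0.11), where control 3 fell inside the knockout range.

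Notch2 was close between genotypes where it was abundant. B cells had 585, 582 and 667 CPM in knockouts, against 603, 616 and 541 CPM in controls (0.06, SE 0.147), and cholangiocytes had 295, 263 and 326 CPM in knockouts, against 304, 385 and 225 CPM in controls (-0.10, SE 0.18). Piezo2-led stellate nuclei had 79.1, 79.8 and 87.8 CPM in knockouts, all above 72.3, 69.5 and 67.8 CPM in controls (0.19, SE 0.134), as in 6.8% of genes. Periportal-like nuclei, with 78 UMIs, had 10.8, 7.86 and 12 CPM in knockouts, all below 14.7, 12.2 and 16.3 CPM in controls (-0.46, SE 0.347), as in 4.06% of the 9073 genes tested there. Notch3 in Piezo2-led nuclei gave -0.08 (SE 0.215), and in hepatocytes -1.06 (SE 0.566), in nuclei that had 44.0 CPM of Gm17276 and whose clusters mice shared unequally. The part of either in the value was not tested, and without knockout 3 the fold change for Notch3 in hepatocytes was -2.06.

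Ligands did not separate the genotypes in sinusoidal nuclei. Dll4 was at 29.2, 36.1 and 28.3 CPM in knockouts, against 36.5, 27.1 and 28.6 CPM in controls (-0.03, SE 0.148), and Jag1 was at 22.4, 13.6 and 15.8 CPM in knockouts, against 22, 17.6 and 13.3 CPM in controls (-0.07, SE 0.226). In large vessels Dll4 was at 111, 151 and 88.9 CPM in knockouts, against 95.1, 57.9 and 71.5 CPM in controls, with knockout 3 inside the control range (0.64, SE 0.297, unadjusted p 0.0438 and adjusted p 1.0 in edgeR). This was the opposite direction to Hes1 and Notch1 in the same nuclei. Jag1 in Piezo2-led stellate nuclei was at 98.8, 122 and 64.1 CPM in knockouts, against 107, 71.3 and 73 CPM in controls (0.13, SE 0.23), and in cholangiocytes at 102, 101 and 99.9 CPM in knockouts, against 167, 107 and 92 CPM in controls (-0.29, SE 0.244). Heyl in Piezo2-led nuclei gave -0.14 (SE 0.202) and Hey1 in macrophages 0.63 (SE 0.582), which was -0.12 without knockout 3.

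**Figure D5:**
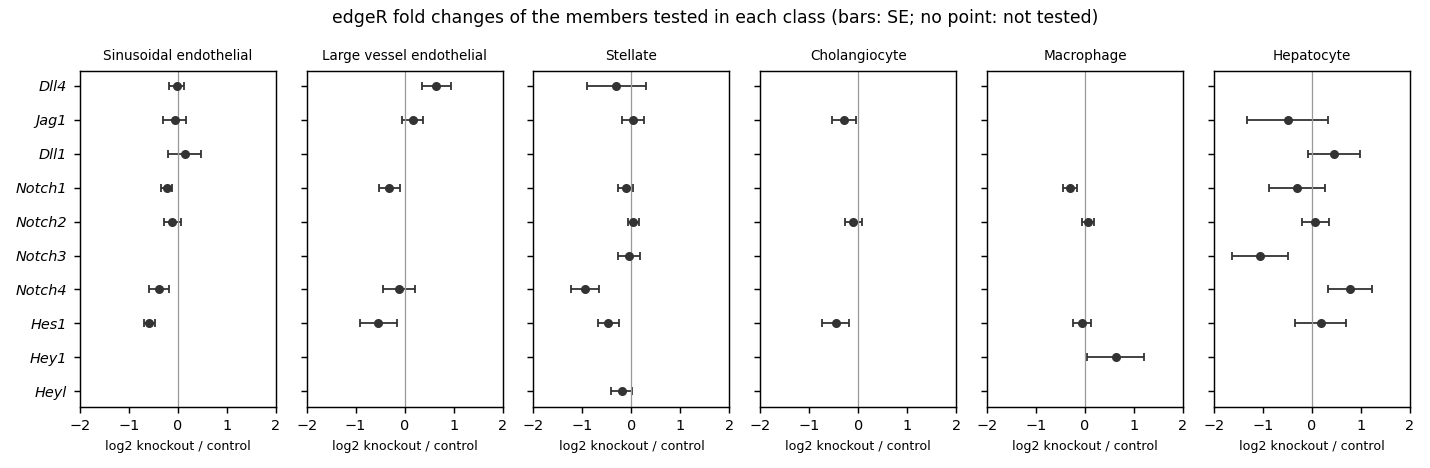
Log2 fold change of knockout over control with its standard error for each gene that entered the fit, in 6 classes, from edgeR on UMI sums of 3 knockout and 3 control mice. Hes1 was below 0 in 5 of the 6 classes, and none of the genes passed an adjusted p of 0.05.

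A wider list of 48 pathway genes was read from the same fits. It holds other ligands, the glycosyltransferases that modify receptors, the ubiquitin ligases that drive ligand endocytosis, the proteases that cleave receptors, the nuclear complex, receptor turnover factors and other targets. Of these, 43 entered at least 1 fit, giving 381 tests, of which 0 passed in edgeR and 0 in DESeq2. An unadjusted p under 0.05 in edgeR was found in 8, where all genes had 565 in 12992 for sinusoidal and 484 in 12031 for stellate nuclei. Of the 381, 207 were lower in knockouts, where 49% to 50.6% of all genes in a fit were higher. In sinusoidal nuclei 34 of these 43 were tested, 12 higher and 22 lower. Their median log2 fold change was -0.03, where the median over all genes was -0.00. In stellate nuclei 34 of the 43 were tested, of which 18 were higher, with a median of 0.02.

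The abundant members of each role were close between genotypes in sinusoidal nuclei. Among coactivators, Maml2 was at 1328 ± 83.5 CPM in knockouts and 1233 ± 41.7 CPM in controls with a fold change of 0.06 (SE 0.0978), and Maml3 at 858 ± 91.6 CPM in knockouts and 768 ± 124 CPM in controls with 0.12 (SE 0.136). Numb and Itch, which lower receptor levels, gave -0.18 (SE 0.101) and -0.08 (SE 0.0962), and Mib1 and Mib2, the ligases that activate ligands, 0.01 (SE 0.0919) and 0.09 (SE 0.169). The protease Adam10 gave -0.03 (SE 0.109) and the γ-secretase subunit Psen2 -0.02 (SE 0.137), and the glycosyltransferases Pofut1 and Mfng gave 0.13 (SE 0.128) and -0.23 (SE 0.156). Efnb2, an arterial target, gave -0.01 (SE 0.204) and Gja4, a gap junction gene, -0.38 (SE 0.488). Dner and Jag2, the ligands highest in this class outside the 10 genes, were at 0.55 and 0.36 CPM and did not enter the fit.

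Nrarp, a target that feeds back on the receptor, was named for its unadjusted p after values were seen. Among the 8 pathway tests with an unadjusted p under 0.05 in edgeR, its tests were those in sinusoidal and large vessel nuclei. The other tests were in periportal-like, intermediate, hepatocyte, T/NK and B nuclei. Their genes and directions are not given here, so Nrarp is a picked example. In sinusoidal nuclei it was at 8.07, 6.82 and 3.32 CPM in knockouts, against 10.9, 9.86 and 7.26 CPM in controls, from 259 UMIs, a fold change of -0.66 (SE 0.294). In large vessels it was at 33, 50.4 and 27.1 CPM in knockouts, against 98.3, 89.99 and 31.3 CPM in controls, from 95 UMIs, a fold change of -1.02 (SE 0.414). Groups overlapped in both, and the adjusted p was 0.999 and 0.9995 in edgeR. Rbpj, the DNA-binding partner, was at 70.3, 73.6 and 62.4 CPM in sinusoidal nuclei of knockouts, against 82.3, 61.7 and 66.7 CPM in those of controls, a fold change of -0.07 (SE 0.122).

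The pathway genes were read along the sinusoid as well. Of 34 with at least 5 CPM in either zone, 5 were higher in the periportal-like zone in all 6 mice (Psen2, Maml2, Dtx3, Hes6 and Efnb2) and 2 were lower (Lfng and Maml3), against the shares of 7.43% and 7.69% over all genes of that level. Efnb2 was among the markers that named the zones, so its ratio of 2.54 ± 0.33 was set by the naming. Lfng, the Fringe enzyme that favours Dll over Jag ligands, ran the other way from Dll4 and Jag1, with a ratio of -2.32 ± 0.68, from 7.18 ± 3.15 CPM in periportal-like and 37.5 ± 8.27 CPM in pericentral-like nuclei (SD, n = 6). Psen2 had a ratio of 0.74 ± 0.25 and Maml3 of -0.70 ± 0.36. In stellate nuclei 4 of 34 were higher in the Piezo2-led cluster in all 6 mice (Neurl1b, Psen2, Gucy1a1 and Gja4) and none was lower in all 6, against the shares of 6.61% and 11.3% over all genes of that level.

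Genes whose profile over the 13 class means was most like each member were taken by Pearson's r of log2(CPM + 1), among 12885 candidates. The points share libraries and depth, so r is a description. Notch4 was closest to Il6st (r = 0.978), Snrk (0.977) and Vsig2 (0.974), and Dll4 to Hoxb6 (0.955), Vwa3a (0.949) and Sox18 (0.941). Jag1 was closest to Maoa (0.95), Cavin1 (0.927) and Kalrn (0.917), and Notch1 to Tacc1 (0.924), Mcam (0.921) and Pde1c (0.92). Heyl was closest to Lsamp (0.976), Pakap (0.971) and Kcnk2 (0.967), and Notch3 to Scn3a (0.963), Synpo2 (0.919) and Trarg1 (0.904). Hes1 was closest to Zfp609 (0.939), Zfp532 (0.934) and Cpne8 (0.93), Notch2 to Phldb3 (0.903), Prr3 (0.902) and Map3k5 (0.892), and Dll1 to Med4 (0.901), AU021092 (0.89) and Robo4 (0.868). Hey1, under 10 CPM in every class, was not profiled.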

How the data were processed

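Single-nucleus RNA was measured in livers of 3 knockout and 3 control mice with the Chromium 3′ version 3.1 kit, per the labels' protocols. The deposited matrices hold raw UMI counts per gene and barcode for 32285 features, made with Cell Ranger 7.1.0 per the file headers and 7.0.1 on mm10 per the submitters' processing notes. The sources used here do not say whether introns or strand were used. The 10 genes and all lists were chosen with earlier results of these data known.

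Nuclei with at least 500 genes, 1000 UMIs and under 5% mitochondrial UMIs were kept, and scrublet removed 805 of 26467 as doublets, 2.22% to 3.77% per library. Leiden clustering (scanpy 1.11.5, leidenalg 0.10.2; 3000 variable genes, 30 components, 15 neighbours, resolution 1) gave 32 clusters. A cluster was named where its marker score reached 1 and led the next by 0.5, thresholds set after seeing clusters. It was left out where its 10 leading genes held more markers of another type than of its own. It was also left out where over 90% came from 1 library, a rule not applied to hepatocytes. Counts were summed per mouse and class and tested with edgeR 4.0.16 (quasi-likelihood, TMM, filterByExpr, robust; R 4.3.3), knockout over control, with Benjamini-Hochberg adjustment over all genes of a fit. Genes named by rule were the 10 genes, the 2 most abundant genes of each pathway role in sinusoidal nuclei, and 3 like-profiled genes per member. Nrarp and Rbpj were named outside this rule, Nrarp for its unadjusted p. Lfng, Dtx3, Hes6, Neurl1b and Gucy1a1 were also outside it, named for differing between zones or stellate clusters in all 6 mice. On simulated counts for sinusoidal nuclei (13003 genes) 93.8% of genes changed by 1 on the log2 scale and 100% of those changed by 2 were recovered, with 18 false calls. For stellate nuclei (12044 genes) recovery was 88.1% and 100%, with 6 false calls, and for the zone by genotype term (10998 genes) 91.5% of changes of 2, with 5 false calls. Each simulation gave every gene the same spread and changed only genes of high count. These shares therefore do not carry over to genes of few UMIs, such as Hey1, Dll1 or Notch4 in stellate nuclei. Alternatives were DESeq2 1.42.0 and its size factors, no filter, each mouse or 2 mice left out, doublets kept, members allowed in clustering, thinning to 1000 UMIs and zones of equal size by score. Positions are GENCODE M21, and intervals and floors cover counting error only.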

Additional observations from a re-analysis of the deposited data

Results flagged for a closer look

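Notch2 differed in direction between classes. In Piezo2-led stellate nuclei all 3 knockout mice lay above all 3 control mice (log2 fold change 0.19), as did 6.8% of genes tested there, and in periportal-like sinusoidal nuclei all 3 knockout mice lay below all 3 control mice (log2 fold change -0.46), as did 4.06% of genes. Neither passed, and the difference between the classes was not tested. Periportal-like nuclei had 78 Notch2 UMIs in all.

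Clusters outside the 13 classes held Dll1 above the mean of any of the 13, and Hes1 at about the level of periportal-like nuclei. The cluster led by Dmbt1 that scored as cholangiocyte, of 289 nuclei with 95.5% from control 2, had Dll1 at 25.9 CPM from 41 UMIs and Hes1 at 87.3 CPM from 138 UMIs. A Vwf-led and Wnt9b-led endothelial cluster of 154 nuclei, found in every mouse, had Dll1 at 17.5 CPM from 12 UMIs. No group comparison was made in either.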

How the results depend on the processing

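Over the 13 fits, which share nuclei, there were 29 calls as reported, a gene counting once in each fit that called it. The count was 424 with no low-count filter, 96 with DESeq2, 71 without control 1 and knockout 2, and 18 to 86 with 1 mouse left out (86 without control 1, 18 without control 3). Calls among the 10 genes stayed at 0 under every alternative but no low-count filter, which gave 1 (Hes1 in sinusoidal nuclei), and pathway calls were 0 throughout. The zone by genotype term called 5 genes as reported, 11 with no low-count filter, 3 with DESeq2, 8 without control 1 and knockout 2, 3 with doublet calls kept, and 4 to 10 with 1 mouse left out (10 without control 2), and it was not run with members allowed in clustering. The highest class was the same for 8 to 10 of the 10 genes, changing for Notch4 and Hes1 with doublet calls kept or members allowed, for Dll1 with thinning, and for Hes1 or Notch4 without control 1 or control 2. Dll4, Jag1 and Hes1 were higher on the portal side under every alternative, except Jag1 with doublet calls kept. Of 897 recomputed fold changes of the 10 genes, 877 moved by less than the spread between mice, and of 110 zone ratios 89 did. Adding the hepatocyte-scored cluster kept apart, chosen after seeing the data, left all counts at 29 and 0. The cause of these changes was not tested. Depth limits Hey1, with 126 UMIs in all, and Dll1, with 435. No paired analysis was possible because replicate numbers only name mice in accession order.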
